A study of Mus musculus with 6 samples.

Results

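The genes examined here are 43 genes of the DNA damage response and of DNA repair, out of 22706 genes in the expression table of freshly sorted muscle stem cells (MuSCs). They were taken by symbol from a list of repair genes and all 43 were found in the table. The rule used no measured value, although the list was drawn up with earlier results of these data known. MuSCs are the resident stem cells of skeletal muscle, which stay quiescent under the basal lamina of the fibre and divide when the fibre is damaged. Their RNA was sequenced from C57BL/6 mice of 3 genotypes, each represented by 2 libraries. Control mice were wild type, mdx mice carried the mutation that removes functional dystrophin and causes a chronic muscular dystrophy, and Sirt6mKO/mdx mice carried the same mdx mutation together with a deletion in Sirt6, a gene for a NAD-dependent histone deacetylase. The deletion was made by a Cre recombinase expressed from the Pax7 locus, so that it affects MuSCs and all muscle cells that descend from Pax7-positive cells, and the mdx mutation affects every cell of the animal. The labels give neither age nor sex, and do not say whether a library came from 1 animal or a pool, so the p-values measure the spread between these libraries only.

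Cells meet DNA damage with a set of pathways that divide the work by lesion. Breaks through both strands are sensed by the kinases ATM and ATR and are joined either end to end, by the Ku and ligase IV machinery, or by homologous recombination, in which BRCA1 and BRCA2 take part and the sister chromatid is copied after replication. Lesions of a single strand, altered bases, bulky adducts and mismatches go to the PARP, base excision, nucleotide excision and mismatch repair enzymes. Many recombination genes are transcribed mainly in cells that replicate their DNA, and quiescent MuSCs rely largely on end joining.

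The values are read counts that the authors divided by 1 size factor per library, given as normalized read counts. Size factors recovered from the values put the depth at about 4397765 to 9744452 reads per library, so that 1 read was worth between 0.655 and 1.86 normalized counts. Pairs of values below are in the order replicate 1 and replicate 2, and sets of 3 pairs in the order control, mdx and Sirt6mKO/mdx. Sirt6 itself was read at similar levels in every group: its normalized read counts were 41 and 32 for control, 33 and 40 for mdx, and 37 and 30 for Sirt6mKO/mdx. Its log2 fold change of -0.12 in Sirt6mKO/mdx against mdx (SE 0.50, adjusted p 0.912) does not show the deletion, which removes part of the transcript, so the genotype of the libraries labelled Sirt6mKO/mdx, and each direction given for them, rests on the labels. The control libraries also stood apart by sex-linked genes. Xist had 16772 and 12950 in control and 7 to 34 in the other libraries, and Ddx3y, on the Y chromosome, had 3 and 8 in control and 1024 to 1767 elsewhere, although the study describes males. Differences of sex and of genotype therefore cannot be told apart in any comparison with control. None of the 43 genes lies on the X or Y chromosome. The MuSC markers, a list of 10 genes, summed to 24280 to 36860 per library, and Pax7, which defines MuSCs, had 2167 to 3236. Of the 10, Sdc4 was called in all 3 comparisons and was lowest in mdx (7692 and 6224, 1100 and 1049, and 2753 and 2822) and Notch3 lower in Sirt6mKO/mdx against control (7831 and 6184, 4041 and 5382, and 3049 and 2789). Vcam1 and Cdh15 had their highest values in mdx and were not called.

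Among the repair genes, 6 rose and none fell in mdx against control, 5 fell and none rose in Sirt6mKO/mdx against mdx, and 1 fell in Sirt6mKO/mdx against control. A gene was called when its adjusted p, from limma with Benjamini-Hochberg adjustment over all 15915 tested genes, was at most 0.05 and its log2 fold change at least 1 in size. All 43 genes passed the filter on low values, a mean of at least 5 over the 6 libraries, but Parpbp and Rad51ap1 passed only through the mdx libraries, in which they are high. Their means over the 4 other libraries were 4.75 and 3.5, so their calls in mdx rest partly on that filter, and the other 41 genes passed it without any 1 group. As background, 6.89% of the tested genes rose and 7.34% fell in mdx against control. The 6 repair genes called higher were Parpbp, Rad51ap1, Lig4, Fignl1, Bard1 and Brca2. Of the 43 genes, 32 had a fitted log2 fold change above 0, as did 50.1% of all tested genes. The median was 0.44 and the range -1.03 to 4.72, where the median of all tested genes was 0.00. Both mdx libraries lay above both control libraries in 16 of the 43 genes and below them in 8, against 28.7% and 28.3% of all tested genes. The count is not independent of the study, because Parpbp, Rad51ap1, Lig4, Fignl1 and Brca2 stand in a list of stress response genes that the authors chose as raised in these same mdx libraries. Of the 38 members outside that list, only Bard1 was called higher, and the median was 0.23.

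Between Sirt6mKO/mdx and mdx, 2.54% of all tested genes fell and 5.62% rose. The 5 repair genes called lower were Blm, Brca2, Xrcc5, Parp1 and Parp2, and 4 of them lie outside the list of the authors. The median of the 43 genes was -0.60, with a range from -2.49 to 0.70, where all tested genes had a median of 0.02. The 38 genes outside that list, whose members were picked for high values in mdx, had a median of -0.46. Only 10 of the 43 were fitted above 0, against 51.0% of all tested genes. Both Sirt6mKO/mdx libraries lay below both mdx libraries in 25 genes and above them in 3, against 27.2% and 28.8% of all tested genes. Scaling by summed values instead lowered the median of all tested genes to -0.58 and then called 20 of the 43 lower and none higher, where 18.4% of all tested genes were called lower and 3.01% higher.

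Between Sirt6mKO/mdx and control, 2.68% of all tested genes fell and 5.19% rose, and Msh6 was the only repair gene called. The median of the 43 was -0.11, that of all tested genes was 0.01, and 18 of the 43 against 50.4% of all tested genes were fitted above 0. The groups did not overlap in 7 genes that were higher and 9 that were lower in Sirt6mKO/mdx, against 26.3% and 25.3% of all tested genes. With scaling by summed values the median of all tested genes was again -0.58, and 10 of the 43 were called lower and 1 higher, where 16.9% of all tested genes were called lower and 2.86% higher. The first and second comparison share the mdx libraries, so a high value there raises the one and lowers the other, and the signs of both are not separate evidence. In total 11 of the 43 genes were called at least once, Brca2 in 2 comparisons, and 32 in none.

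**Figure D1:**
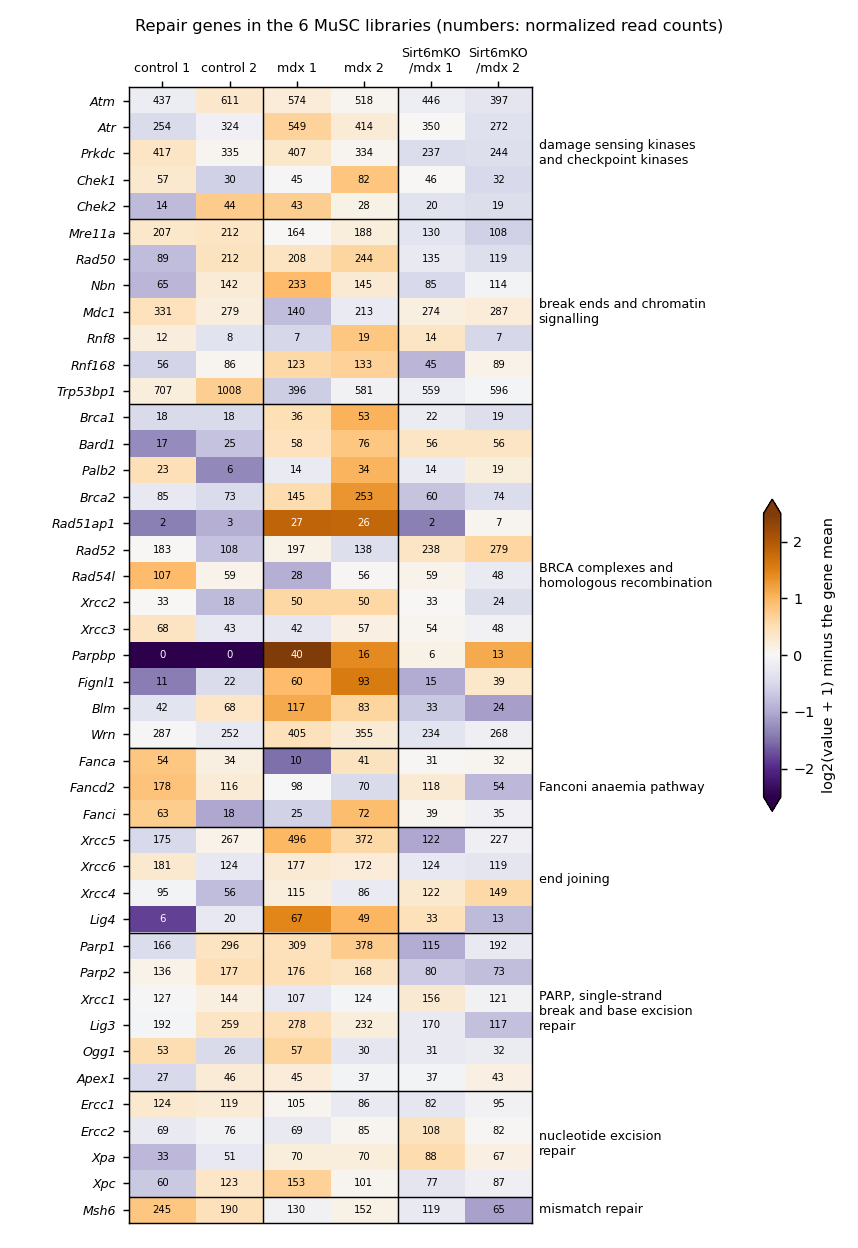
Normalized read counts of the 43 repair genes (rows, by role) in the 6 libraries (columns), with the colour giving log2(value + 1) minus the mean of the gene over the 6 libraries. The mdx columns hold the highest pair of values in 9 of the 13 recombination rows, and Mdc1 is lowest there with 140 and 213.

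**Figure D2:**
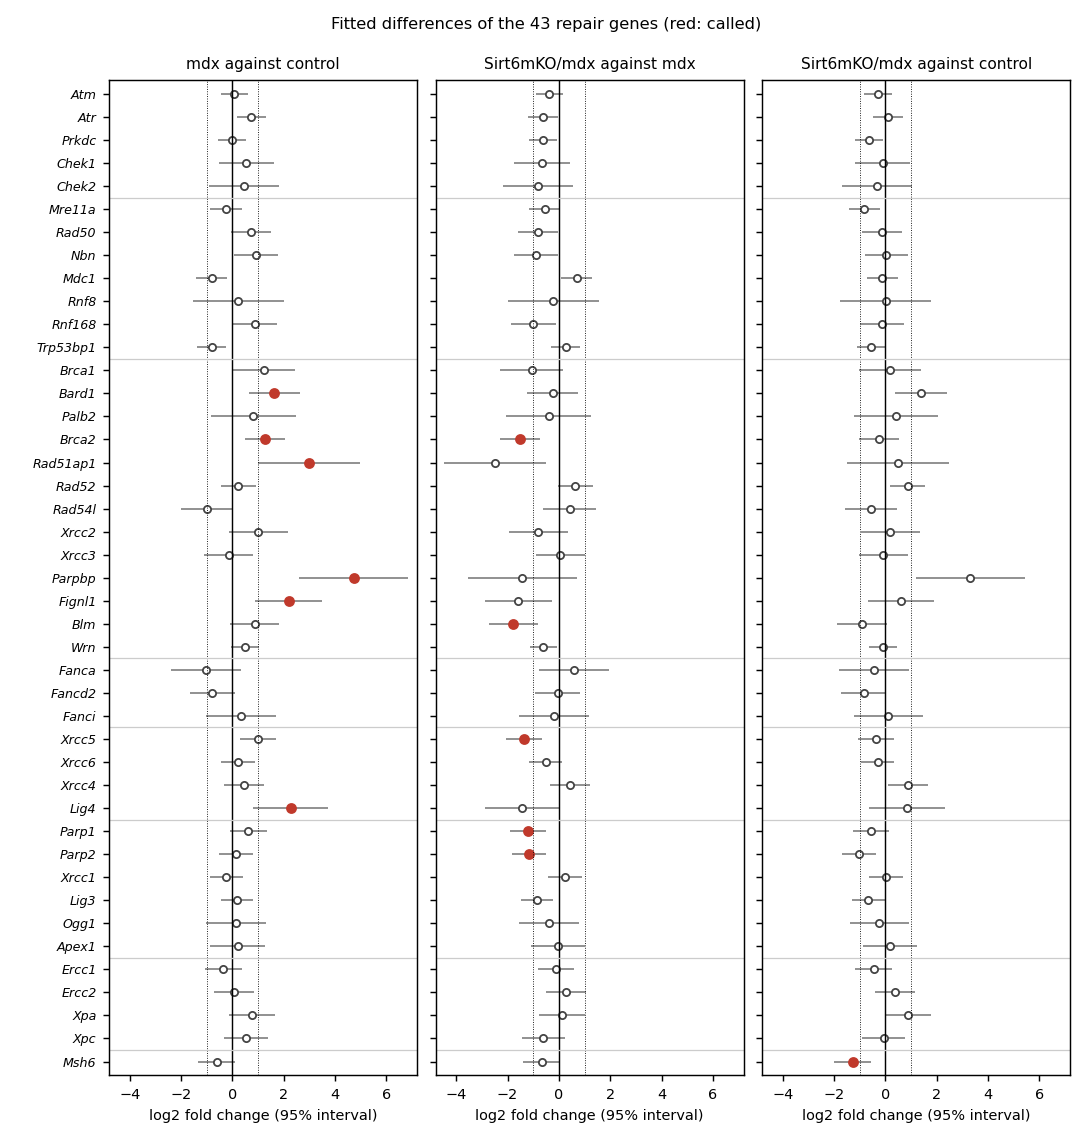
Fitted log2 fold changes of the 43 repair genes in the 3 comparisons, with 95% intervals from limma and called genes in red; dotted lines mark a log2 fold change of -1 and 1. Called genes lie to the right of 0 in mdx against control (6 genes) and to the left in Sirt6mKO/mdx against mdx (5 genes) and Sirt6mKO/mdx against control (1 gene).

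Homologous recombination was the largest role, with 13 genes. Of these, 5 were called higher in mdx against control, where 6.89% of all tested genes were. The list of the authors, chosen as raised in these libraries, holds 4 of the 5 (Parpbp, Rad51ap1, Fignl1 and Brca2), so that Bard1 was the only one called outside it. Brca2 and Blm were called lower in Sirt6mKO/mdx against mdx, where 2.54% of all tested genes were, and the group had a median log2 fold change of -0.81 there. Parpbp encodes a PARP1-binding protein that restrains recombination. No read was counted in either control library, while mdx had 40 and 16 normalized read counts and Sirt6mKO/mdx had 6 and 13. Against a floor of 3 reads over both control libraries, Parpbp was at least 18.3-fold higher in mdx and at least 6.2-fold higher in Sirt6mKO/mdx. The second bound was 8.5-fold without Sirt6mKO/mdx replicate 1 and 3.92-fold without replicate 2. The adjusted p was 0.00503 for mdx and 0.0523 for Sirt6mKO/mdx. The bound in mdx was 10.5-fold without mdx replicate 1, where the call was lost with an adjusted p of 0.134, and 26.1-fold without mdx replicate 2. With Parpbp at its bound the median of the 43 genes stayed at 0.44. A share of 12.1% of its exonic bases also belongs to Pmch on the opposite strand.

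Rad51ap1, which encodes a protein that promotes strand pairing in recombination, had 2 and 3 normalized read counts in control and 27 and 26 in mdx, against 2 and 7 in Sirt6mKO/mdx. Both mdx libraries lay far above the 4 others. The control values are near those of 3 reads (4.53 and 2.31), and the gene passed the filter through mdx only. The log2 fold change was 2.99 in mdx against control (SE 0.93, adjusted p 0.0394), and -2.49 in Sirt6mKO/mdx against mdx (SE 0.93, adjusted p 0.109), which did not pass. Fignl1, an AAA ATPase of the recombination pathway, had 11 and 22 in control and 60 and 93 in mdx, against 15 and 39 in Sirt6mKO/mdx. It rose by 2.19 in mdx (SE 0.61, adjusted p 0.0236) and had -1.58 in Sirt6mKO/mdx against mdx (SE 0.61, adjusted p 0.12). The mdx libraries were again the highest pair. The call of Rad51ap1 stood without Sirt6mKO/mdx replicate 1 only, with adjusted p-values up to 0.242, and that of Fignl1 was lost without control replicate 1 or either mdx library, up to 0.19.

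Brca2 acts on resected DNA in recombination and was the only repair gene called in both of the first comparisons. Its normalized read counts came to 85 and 73 in control and 145 and 253 in mdx, against 60 and 74 in Sirt6mKO/mdx, so that control and Sirt6mKO/mdx overlapped while mdx lay above both. It was 2.41-fold higher in mdx than in control (log2 1.27, SE 0.36, adjusted p 0.0266) and 2.85-fold lower in Sirt6mKO/mdx than in mdx (log2 -1.51, SE 0.36, adjusted p 0.019). Without mdx replicate 2 the log2 fold changes were 0.87 and -1.11, and both calls were lost, with adjusted p-values of 0.261 and 0.224. Both were also lost without Sirt6mKO/mdx replicate 2, the first without either control library and the second without Sirt6mKO/mdx replicate 1.

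Bard1, the obligate partner of BRCA1, had 17 and 25 normalized read counts in control and 58 and 76 in mdx, against 56 and 56 in Sirt6mKO/mdx. The log2 fold change was 1.64 in mdx against control (SE 0.47, adjusted p 0.0273) and -0.24 in Sirt6mKO/mdx against mdx, with a 95% interval from -1.25 to 0.76. Sirt6mKO/mdx was 2.63-fold above control, which did not pass (adjusted p 0.08). The call of Bard1 stood without control replicate 2 only, with adjusted p-values up to 0.176 without any other library. Brca1 was low, at 18 and 18 in control and 36 and 53 in mdx, against 22 and 19 in Sirt6mKO/mdx. Its mdx libraries were the highest pair, but neither 1.23 in mdx against control (SE 0.57, adjusted p 0.156) nor -1.06 in Sirt6mKO/mdx against mdx (adjusted p 0.266) passed the test.

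Blm, a helicase that dissolves recombination intermediates, fell in Sirt6mKO/mdx. Its normalized read counts came to 42 and 68 in control and 117 and 83 in mdx, against 33 and 24 in Sirt6mKO/mdx, with no overlap between any 2 groups. Its level was 3.41-fold lower than in mdx (log2 -1.77, SE 0.45, adjusted p 0.025), against -0.90 relative to control (adjusted p 0.24). This call was lost without any 1 of the mdx or Sirt6mKO/mdx libraries, with adjusted p-values up to 0.236. The other recombination genes were not called. Wrn, a related helicase, had 287 and 252 in control and 405 and 355 in mdx, against 234 and 268 in Sirt6mKO/mdx. Rad52 had its highest values in Sirt6mKO/mdx (238 and 279, with 108 to 197 elsewhere), and Rad54l had its highest in control (107 and 59, with 28 to 59 elsewhere). Xrcc2, Xrcc3 and Palb2 lay between 6 and 68 in every library.

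The stretches of 250 bases before the RefSeq start (mouse GRCm38.p6) are shown for the 4 genes called higher in mdx that have 1 listed start and whose stretch does not reach into the gene as counted. They show what the promoters of the raised genes look like. Capitals mark, on either strand, the E2F letters TTCCCGC or TTGGCGC, the CCAAT letters and the CHR letters TTTGAA, which are motifs common in genes of replicating cells. The letters TTGGCGC can share bases with CCAAT on the other strand.
Parpbp (chr10:88146942-88147191, minus strand): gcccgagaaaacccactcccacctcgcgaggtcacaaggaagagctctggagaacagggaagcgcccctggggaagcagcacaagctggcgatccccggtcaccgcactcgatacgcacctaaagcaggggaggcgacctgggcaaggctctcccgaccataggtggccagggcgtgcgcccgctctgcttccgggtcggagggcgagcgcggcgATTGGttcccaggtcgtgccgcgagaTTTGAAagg
Rad51ap1 (chr6:126939588-126939837, minus strand): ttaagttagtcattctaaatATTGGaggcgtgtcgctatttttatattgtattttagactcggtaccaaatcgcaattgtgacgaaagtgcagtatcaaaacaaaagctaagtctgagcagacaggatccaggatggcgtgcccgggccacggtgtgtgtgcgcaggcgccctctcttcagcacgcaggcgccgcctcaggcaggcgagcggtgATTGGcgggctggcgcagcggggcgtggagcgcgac
Fignl1 (chr11:11808963-11809212, minus strand): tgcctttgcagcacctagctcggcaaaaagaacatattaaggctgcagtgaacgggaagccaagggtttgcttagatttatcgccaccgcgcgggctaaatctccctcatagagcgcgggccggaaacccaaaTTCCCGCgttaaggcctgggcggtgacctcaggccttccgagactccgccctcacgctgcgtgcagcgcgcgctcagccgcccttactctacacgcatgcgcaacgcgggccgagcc
Brca2 (chr5:150522371-150522620, plus strand): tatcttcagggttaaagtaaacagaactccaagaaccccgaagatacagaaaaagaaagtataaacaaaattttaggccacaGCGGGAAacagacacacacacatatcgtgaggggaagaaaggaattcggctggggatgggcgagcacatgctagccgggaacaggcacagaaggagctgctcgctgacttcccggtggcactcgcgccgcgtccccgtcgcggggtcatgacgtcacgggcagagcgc
Fignl1 and Brca2 hold E2F letters at 117 and 168 bases before the start, while Parpbp and Rad51ap1 hold CCAAT letters, on the strand opposite to the gene, at 35 and 36 bases before it. In the 250 bases before the start, E2F letters were in 12 of 38 promoters of 36 matched repair genes (31.6%). They were in 9.46% of 13482 promoters of tested genes and in 5.62% of all 32851 promoters. Among 22 promoters of proliferation markers the share was 40.9%. CCAAT letters were in 52.6% of the promoters of repair genes against 34.6% for tested genes, CHR letters in 7.89% against 10.6%, GC box letters (GGGCGG) in 68.4% against 55.5% and the NRF1 motif in 2.63% against 1.54%. Of the 7 promoters of the 6 genes called higher in mdx, 3 hold E2F letters (Bard1, Brca2 and Fignl1), and of the 5 promoters of genes called lower in Sirt6mKO/mdx against mdx, 1 does (Brca2). Of the same 7 promoters, 28.6% hold CCAAT letters and 42.9% GC box letters, both below the shares for tested genes, and 28.6% hold CHR letters. Such matches describe the letters only. Promoters of Rad50, Wrn, Xpc, Prkdc, Fancd2, Nbn and Xrcc2 were not used here.

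End joining was represented by 4 genes. Lig4, the ligase that seals the ends, was called higher in mdx and Xrcc5 was called lower in Sirt6mKO/mdx against mdx. Lig4 had 6 and 20 normalized read counts in control and 67 and 49 in mdx, against 33 and 13 in Sirt6mKO/mdx. It was 4.81-fold higher in mdx than in control (log2 2.27, SE 0.69, adjusted p 0.0353), and the log2 fold change of -1.42 in Sirt6mKO/mdx against mdx did not pass (adjusted p 0.216). The size rested in part on control replicate 1. Without it the log2 fold change was 1.47 (adjusted p 0.216), and the call stood without control replicate 2 only, with adjusted p-values up to 0.265. Xrcc5, which encodes the larger Ku subunit, was the most abundant of the 43 genes per exonic kilobase, with a mean of 108 normalized read counts per kilobase over the 6 libraries.

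The normalized read counts of Xrcc5 came to 175 and 267 in control and 496 and 372 in mdx, against 122 and 227 in Sirt6mKO/mdx. The mdx libraries were the highest pair and the other groups overlapped. Xrcc5 was 2.57-fold lower in Sirt6mKO/mdx than in mdx (log2 -1.36, SE 0.33, adjusted p 0.0193), and its 0.99 in mdx against control just missed the threshold (adjusted p 0.0527). Without Sirt6mKO/mdx replicate 1 the difference from mdx was -0.92 (adjusted p 0.281), and the call was also lost without either mdx library. Its partner Xrcc6, the smaller Ku subunit, was not called. It had 181 and 124 in control and 177 and 172 in mdx, against 124 and 119 in Sirt6mKO/mdx, with -0.52 in Sirt6mKO/mdx against mdx and a 95% interval from -1.17 to 0.13. Xrcc4, the scaffold of ligase IV, had its highest values in Sirt6mKO/mdx (122 and 149, with 56 to 115 elsewhere) and was not called.

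In single-strand break and base excision repair, Parp1 and Parp2 of 6 genes fell in Sirt6mKO/mdx against mdx, where 2.54% of all tested genes did. None of the 6 was called higher in mdx against control, where 6.89% of all tested genes were. Parp1, the main sensor of single-strand breaks, had 166 and 296 normalized read counts in control and 309 and 378 in mdx, against 115 and 192 in Sirt6mKO/mdx. It was 2.29-fold lower in Sirt6mKO/mdx than in mdx (log2 -1.20, SE 0.33, adjusted p 0.0368) and had 0.62 in mdx against control (adjusted p 0.222). Both mdx libraries lay above the 4 others, and control overlapped with Sirt6mKO/mdx. Without Sirt6mKO/mdx replicate 1 the difference from mdx was -0.83 (adjusted p 0.359), and the call was lost without each of the other mdx and Sirt6mKO/mdx libraries too. Parp2, its close relative, showed another order. It had 136 and 177 in control and 176 and 168 in mdx, against only 80 and 73 in Sirt6mKO/mdx, which lay below all 4 other libraries.

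Parp2 was 2.23-fold lower in Sirt6mKO/mdx than in mdx (log2 -1.16, SE 0.31, adjusted p 0.0316) and had -1.01 against control, which just missed the threshold (adjusted p 0.0557). In mdx against control it had 0.15, with a 95% interval from -0.51 to 0.81. Its call was lost without any 1 of the mdx or Sirt6mKO/mdx libraries (adjusted p up to 0.189). Lig3, a ligase for nicks, had 170 and 117 in Sirt6mKO/mdx and 192 to 278 elsewhere and was not called (-0.84 against mdx, adjusted p 0.0903), and 25.1% of its exonic bases belong also to Rffl. Xrcc1, the scaffold that binds Lig3, stayed between 107 and 156 in all libraries, and the base excision genes Ogg1 and Apex1 between 26 and 57. Of the exonic bases of Apex1, 61.7% lie in Pip4p1 on the opposite strand.

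None of the 5 damage kinases was called in any comparison, where 2.54% to 7.34% of all tested genes were called per comparison and direction. Atm, the kinase that answers double-strand breaks, was among the most abundant members per kilobase and had 437 and 611 normalized read counts in control and 574 and 518 in mdx, against 446 and 397 in Sirt6mKO/mdx. Its log2 fold change in mdx against control was 0.08, with a 95% interval from -0.46 to 0.62. Atr, the kinase of stalled forks, had 254 and 324, 549 and 414, and 350 and 272, with both mdx libraries above the rest. The difference of 0.73 from control missed the threshold (adjusted p 0.0754). Prkdc, the catalytic kinase of end joining, had 417 and 335, 407 and 334, and 237 and 244, so that Sirt6mKO/mdx was lowest, without passing (-0.61 against mdx, adjusted p 0.147). Chek1, the kinase downstream of ATR, had 57 and 30, 45 and 82, and 46 and 32, and all 3 groups overlapped. Chek2, the kinase downstream of ATM, had 14 and 44 in its control libraries, a range that held the values of all 4 others.

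Genes that act on break ends and on the chromatin around them were not called either. Per comparison and direction, 2.54% to 7.34% of all tested genes were called. The mdx mean was below both other means in 2 of the 7, and in 5567 of the 15915 tested genes. Trp53bp1, which shields ends from resection, had 707 and 1008 in control and 396 and 581 in mdx, against 559 and 596 in Sirt6mKO/mdx. Its log2 fold change of -0.81 in mdx against control (SE 0.27, adjusted p 0.0509) lay just outside the threshold on p. Mdc1, the adaptor that binds marked chromatin, had 331 and 279, 140 and 213, and 274 and 287, the only member whose mdx libraries both lay below all 4 others. It had -0.81 in mdx against control (adjusted p 0.0611) and 0.70 in Sirt6mKO/mdx against mdx (adjusted p 0.137). The 3 genes of the MRN complex, which starts resection, differed in their order of levels. Nbn had 233 and 145 in mdx and 65 to 142 elsewhere, Rad50 had 208 and 244 in mdx and 89 to 212 elsewhere, and Mre11a had 207 and 212 in control and 164 and 188 in mdx, against 130 and 108 in Sirt6mKO/mdx. The ubiquitin ligase Rnf168 had 123 and 133 in mdx and 45 to 89 elsewhere, and Rnf8, which acts before it, lay between 7 and 19.

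None of the 3 Fanconi anaemia genes or the 4 nucleotide excision genes was called. Of all tested genes, 2.54% to 7.34% were called per comparison and direction. Fancd2, the protein loaded onto crosslinked DNA, had 178 and 116 normalized read counts in control and 98 and 70 in mdx, against 118 and 54 in Sirt6mKO/mdx (-0.79 in mdx against control, adjusted p 0.211). Fanca and Fanci lay between 10 and 72, with wide gaps between replicates, such as 10 and 41 for Fanca in mdx. Xpc, the damage sensor of nucleotide excision, had 60 and 123, 153 and 101, and 77 and 87, and its groups overlapped between control and mdx. Ercc1, Ercc2 and Xpa lay between 33 and 124. Msh6, a subunit of the mismatch sensor, was lowest in Sirt6mKO/mdx, at 245 and 190 in control and 130 and 152 in mdx, against 119 and 65 in Sirt6mKO/mdx. It was 2.44-fold lower than control (log2 -1.28, SE 0.34, adjusted p 0.0299), and -0.67 against mdx did not pass (adjusted p 0.238). Without Sirt6mKO/mdx replicate 2 the difference from control was -0.85 (adjusted p 0.306), and the call stood without Sirt6mKO/mdx replicate 1 only.

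**Figure D3:**
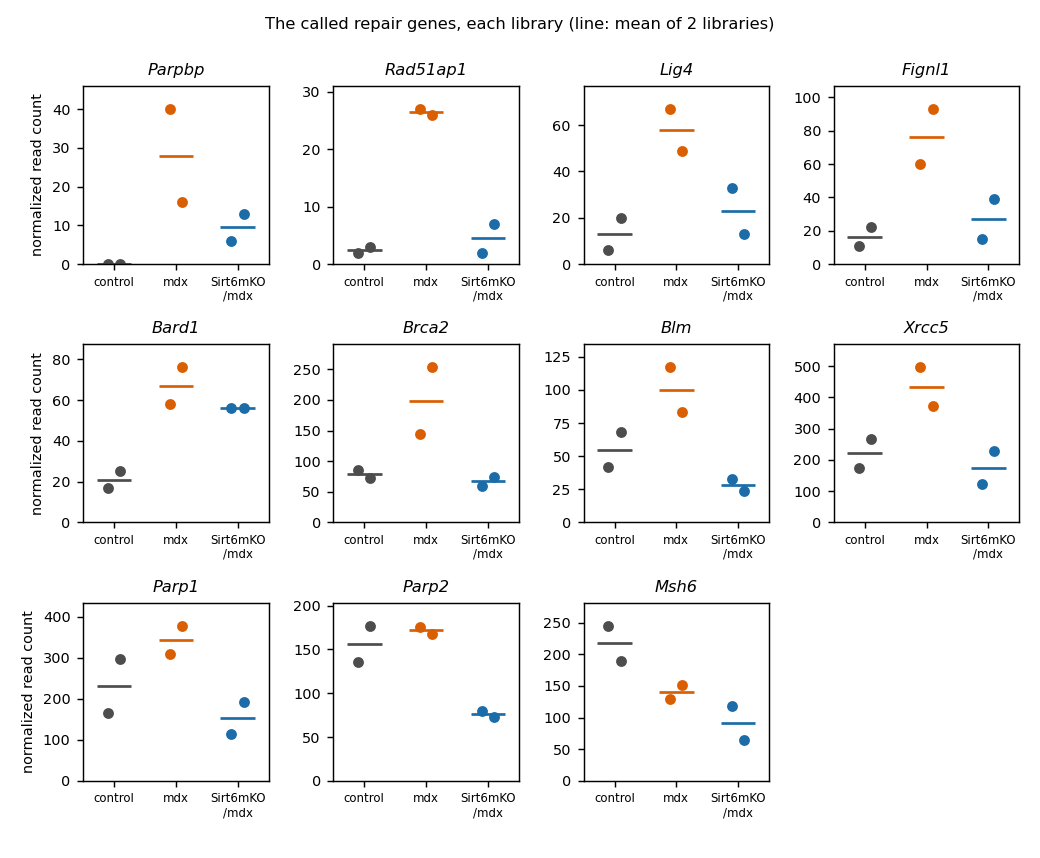
Normalized read counts of the 11 called repair genes in each library (points) with the mean of the 2 libraries of a group (lines); each panel starts at 0. The mdx points are the highest pair in 9 panels, the exceptions being Parp2 and Msh6.

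Across the 43 genes the commonest order put mdx on top. The mdx mean was above both other means in 28 genes, against 33.4% of all tested genes, and below both in 7, against 5567 of the 15915 tested genes. Both mdx libraries lay above all 4 other libraries in 15 genes, a criterion chosen after the values were seen, where 14.8% of all tested genes did so, and below them in 1 gene (Mdc1), where 15.4% of all tested genes did so. These counts hold all 5 genes that the authors chose as raised in mdx, 2 of which (Parpbp and Rad51ap1) passed the filter only through mdx. Among the 38 genes outside that list the mdx mean was the highest in 23 and the lowest in 7, and both mdx libraries lay above the 4 others in 10. The 15 genes were Atr, Bard1, Blm, Brca1, Brca2, Fignl1, Lig4, Nbn, Parp1, Parpbp, Rad51ap1, Rnf168, Wrn, Xrcc2 and Xrcc5, 9 of them of the recombination group. Between replicates, the median absolute log2 difference of the 43 genes was 0.61 in control, 0.42 in mdx and 0.29 in Sirt6mKO/mdx. The widest were Palb2 in control (1.78), Fanca in mdx (1.93) and Rad51ap1 in Sirt6mKO/mdx (1.42).

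Further repair genes were counted in a list of 109, of which 108 were tested. In mdx against control, 14 were called higher and none lower, with a median of 0.29 and a count of 3 to 15 without 1 library in turn, and 9 of these 14 stand in the list of the authors. Of the 99 genes outside that list, 5 were called higher (5.05%), below the 6.89% of all tested genes. Tipin and Etaa1, which act in the checkpoint at replication forks, had 50 and 77 against 229 and 260 (log2 1.96, adjusted p 0.000757) and 11 and 9 against 88 and 103 (log2 3.13, adjusted p 0.00168), and both calls stood without each library in turn. Lig1, the replicative ligase, Mms22l, a recombination factor of stalled forks, and Nsmce4a, a subunit of the SMC5/6 complex, followed with 1.62, 1.67 and 1.41. Those 3 calls were lost without some library: Mms22l without each in turn (adjusted p up to 0.234), Lig1 without control replicate 1 or either mdx library (up to 0.172) and Nsmce4a without mdx replicate 1 (0.151).

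Between Sirt6mKO/mdx and mdx, 6 of the 108 were called lower and 1 higher, with a median of -0.11, against 2.54% and 5.62% of all tested genes, and 4 of the 6 lie outside the list of the authors. The count of lower genes was 0 to 6 without 1 library in turn and 31 with scaling by summed values. Among the called genes, the largest falls were those of the checkpoint clamp gene Hus1 (-1.74), Lig1 (-1.43), Smc6 (-1.42), the ATR activator Topbp1 (-1.27) and Rpa1 (-1.25), which encodes the large subunit of the single-strand binding protein. The call of Lig1 was also lost with voom, with a pseudocount of 0.1 and with scaling by the upper quartile, and that of Topbp1 after centring by GC content. Smc6 had 686 and 778 in control and 1741 and 1893 in mdx, against 551 and 836 in Sirt6mKO/mdx. Without mdx replicate 2 or Sirt6mKO/mdx replicate 1 its adjusted p was 0.057 or 0.136, and each of the other 4 calls was lost without any 1 of the mdx or Sirt6mKO/mdx libraries, with adjusted p-values up to 0.313. Timeless, the partner of Tipin at the fork, moved the other way. It had 44 and 55 in control and 75 and 68 in mdx, against 197 and 205 in Sirt6mKO/mdx, a rise of 1.48 over mdx (adjusted p 0.0165) and of 2.01 over control (adjusted p 0.00217). The first of these calls was lost without any mdx or Sirt6mKO/mdx library (up to 0.167) and the second without either Sirt6mKO/mdx library (up to 0.0765). Against control, Timeless, Tipin (1.58) and Nsmce4a (1.39) were the only ones of 108 called in Sirt6mKO/mdx. The calls of Tipin and Nsmce4a were lost without either Sirt6mKO/mdx library, and that of Nsmce4a also without control replicate 2 (up to 0.146 and 0.189). Both of these calls, and that of Timeless against mdx, were also lost with scaling by summed values.

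Transcriptional targets of p53, the factor that damage kinases stabilize, split in both directions. Of 20 listed and 19 tested, mdx against control had 3 called higher and 6 called lower, against 6.89% and 7.34% of all tested genes. Cdkn1a, the cell cycle inhibitor, had 952 and 531 normalized read counts in control and 206 and 178 in mdx, against 449 and 413 in Sirt6mKO/mdx, and it fell by 1.89 on the log2 scale in mdx (adjusted p 0.000422). Btg2, an antiproliferative gene, had 5489 and 5385, 432 and 374, and 4982 and 6248, with -3.75 in mdx against control and 3.79 in Sirt6mKO/mdx against mdx. Fas, Sesn2 and Plk2 had -3.69, -2.79 and -2.05 in mdx, and all 5 calls stood without each library. Rps27l, Phlda3 and Ccng1 rose by 1.87, 1.81 and 1.27, and all 3 stand in the list of the authors. The call of Rps27l was lost without mdx replicate 1 (adjusted p 0.0608), and that of Ccng1 without control replicate 1 or mdx replicate 1 (up to 0.207). Between Sirt6mKO/mdx and mdx, 6 targets were called higher and none lower, where 5.62% of all tested genes were called higher, with Btg2 (3.79), Gadd45a (2.31), Plk2 (2.10), Sesn2 (2.06) and Fas (1.78) on top. The call of Sesn2 was lost without any 1 of the mdx or Sirt6mKO/mdx libraries and that of Fas without mdx replicate 2 or either Sirt6mKO/mdx library, with adjusted p-values up to 0.135. Against control, Phlda3 (1.90), Rps27l (1.69) and Trp53inp1 (1.18) were higher and Fas (-1.91) lower in Sirt6mKO/mdx. Of these, the call of Trp53inp1 was lost without any 1 of the 6 libraries (up to 0.406) and with scaling by summed values, and the 3 others without Sirt6mKO/mdx replicate 2 (up to 0.182). Rps27l was also lost without control replicate 2, and Fas without control replicate 1 or Sirt6mKO/mdx replicate 1.

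Immediate early genes, which respond within minutes to stimuli such as growth factors and cell dissociation, moved with the targets that fell. All 18 were called lower in mdx against control (median -2.91) and all 18 higher in Sirt6mKO/mdx against mdx (median 2.74), and Btg2 belongs to that list too. Their part in the change of the p53 targets was not tested.

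In mdx against control and in Sirt6mKO/mdx against mdx, the median of the proliferation markers had the same sign as that of the repair genes. In Sirt6mKO/mdx against control the signs differed, with 0.66 for the markers and -0.11 for the 43 repair genes. There 1 of the markers was called higher and none lower, where 5.19% of all tested genes were called higher. Of 24 markers, 10 were called higher in mdx against control and none lower (median 1.42), and 5 were called lower and none higher in Sirt6mKO/mdx against mdx (median -0.66), where 6.89% and 2.54% of all tested genes were called in these directions. The list of the authors holds 3 of the 10 (Cdk1, Top2a and Uhrf1). Of the 21 markers outside it, 7 were called higher in mdx and 4 lower in Sirt6mKO/mdx against mdx. Outside that list, 33.3% of the markers and 2.63% of the repair genes were called higher in mdx, where 6.89% of all tested genes were. Over all 24 markers, the counts of 10 and 5 became 3 to 9 and 0 to 6 without 1 library in turn, and both were 0 with no minimum mean. They summed to 1362 and 1537 in control and 2583 and 3904 in mdx, against 1401 and 2272 in Sirt6mKO/mdx. Mki67 had 39 and 80, 252 and 548, and 99 and 162, and Top2a had 30 and 61, 229 and 369, and 71 and 128. In mdx, replicate 2 had the higher sum of these markers and also the higher Brca2, Fignl1, Bard1 and Brca1, whereas Parpbp, Lig4, Blm and Xrcc5 were higher in replicate 1. In these bulk samples more cells in cycle and more of such RNA per cell cannot be told apart, and the part of proliferation in the repair genes was not tested.

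The fold changes of all tested genes differed with the GC content of the transcript. The longest transcripts of the 43 genes had a median GC content of 46.4%, against 49.8% for the tested genes, and 31 of the 43 lay in the lower 2 of 4 equal bins of tested genes by GC content. In the lowest bin (29.1% to 45.1% GC), 14.6% of all tested genes were called higher in mdx against control, against 3.22% in the highest bin, and the median log2 fold change was 0.42 against -0.21. Those medians in Sirt6mKO/mdx against mdx were -0.21 and 0.33. The 6 genes called higher in mdx had 41.7% to 45.8% GC. After each library was centred along GC content, Parpbp was the only repair gene still called higher in mdx. It passed the filter through mdx only and stands in the list of the authors. Xrcc5 and Parp1 were the only ones still called lower in Sirt6mKO/mdx against mdx. The medians over the 43 in these comparisons were 0.29 and -0.34. With that centring 4.88% of all tested genes were called higher in the first comparison and 1.63% lower in the second. The fold changes of the lost calls kept their direction. In mdx against control, Bard1 went from 1.64 to 1.51 (adjusted p 0.0566), Rad51ap1 from 2.99 to 2.85 (0.0642), Fignl1 from 2.19 to 1.77 (0.0993), Lig4 from 2.27 to 1.87 (0.12) and Brca2 from 1.27 to 0.90 (0.17). In the second comparison, Blm went from -1.77 to -1.51 (0.0702), Brca2 from -1.51 to -1.20 (0.0959) and Parp2 from -1.16 to -0.97 (0.0664), and Msh6 against control went from -1.28 to -1.13 (0.0642).

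**Figure D4:**
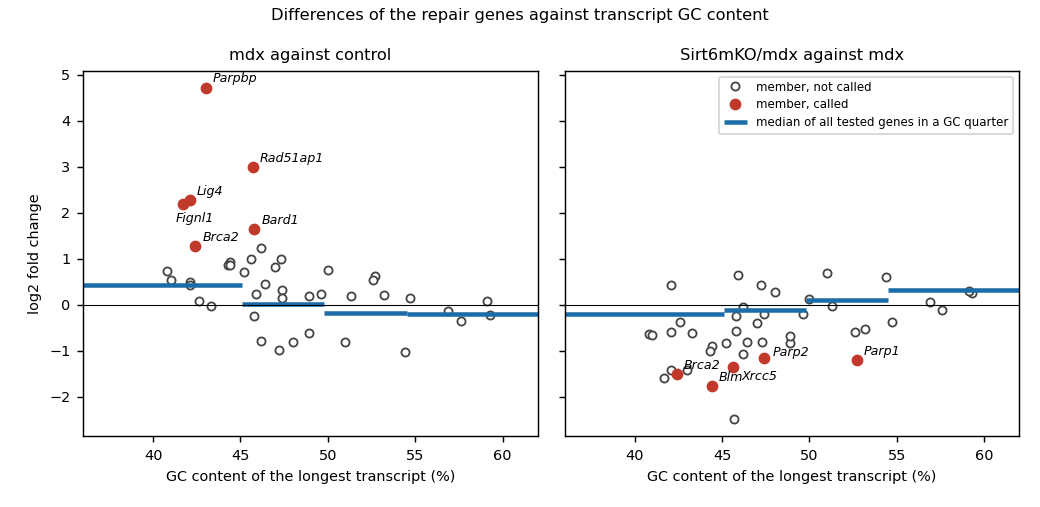
Log2 fold changes of the 43 repair genes against the GC content of their longest transcript in mdx against control and Sirt6mKO/mdx against mdx; blue lines give the median of all tested genes in each of 4 equal bins of GC content. The 6 called genes of the left panel lie between 41.7% and 45.8% GC, where the all-gene median is 0.42 or 0.01.

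Markers of other cells moved too, although the sort removed cells positive for Sca1, CD45 and CD31, which fibro-adipogenic, leukocyte and endothelial cells carry. Of 6 myofibre markers, 3 were called lower in mdx against control and 3 higher in Sirt6mKO/mdx against mdx. Of all tested genes, 7.34% and 5.62% were called in these directions. The myofibre markers summed to 5071 and 6158 in control and 2956 and 1000 in mdx, against 6668 and 3243 in Sirt6mKO/mdx. Endothelial markers summed to 905 and 752 in control and 407 and 401 in mdx, against 608 and 622 in Sirt6mKO/mdx, and fibro-adipogenic markers to 1767 and 2287, 4711 and 2873, and 3720 and 2254. Smooth muscle and pericyte markers had the highest sums in mdx (1009 and 1852, 3030 and 2489, and 1284 and 1807), mostly from Acta2, with 807 and 1604, 2837 and 2334, and 924 and 1558. Leukocyte markers summed to 104 and 131, 117 and 80, and 189 and 191. Among them, the defining gene Ptprc had 0 and 0, 5 and 3, and 3 and 19, while Cd68 had 86 and 88, 30 and 26, and 107 and 56. Of the 6 tested leukocyte markers, 4 were fitted above 0 and 2 below in mdx against control, with a median log2 fold change of 1.86. In Sirt6mKO/mdx against control, 4 were again fitted above 0 and 2 below, with a median of 2.62. Their part in the repair genes was not tested.

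The number of called repair genes depended on single libraries and on the settings of the test. Without 1 library in turn, 1 to 7 were called higher in mdx against control and 0 to 5 lower in Sirt6mKO/mdx against mdx, while all 12 calls kept their direction in each of 211 alternatives and their side of the threshold in 126. With no minimum mean, none of the 43 was called in any comparison. With 1 prior variance for all genes, Parpbp and Rad51ap1 in mdx against control were the only ones called. Both passed the filter through mdx only and stand in the list of the authors. Voom on approximate reads ended the calls of Blm, Parp2 and Msh6, a pseudocount of 0.1 those of Rad51ap1 and Parp1, and a fit of only the groups compared those of Bard1, Lig4 and Msh6.

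**Figure D5:**
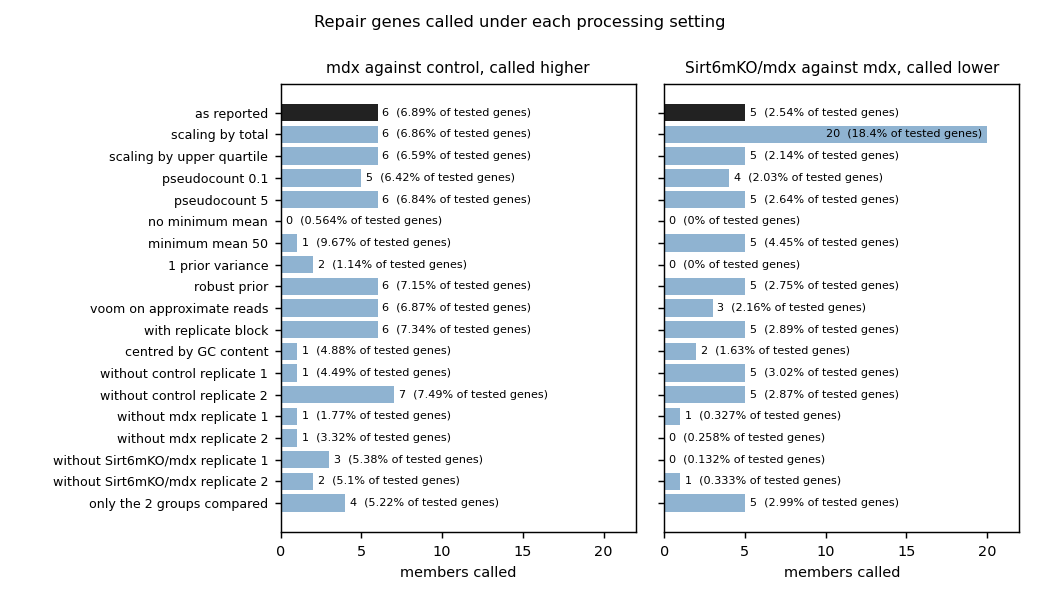
Number of the 43 repair genes called higher in mdx against control and lower in Sirt6mKO/mdx against mdx under each processing setting (bars), with the percentage of all tested genes called in that direction beside each bar. The reported counts are 6 and 5, and leaving out 1 library gives 1 to 7 and 0 to 5.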

How the data were processed

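Freshly sorted MuSCs of 3 genotypes were sequenced on an Ion Torrent instrument after ribosomal RNA depletion, 2 libraries each. Per the labels and the methods, the authors trimmed reads, aligned them with STAR to mouse GRCm38 (mm10), counted reads that overlapped exons of 1 gene with featureCounts 1.4.5-p1, and scaled the counts with DESeq2. The deposited values are a score, a normalized count rounded to a whole number, and not raw counts, so the test below was run on log values in place of a count test. Approximate reads, the values times recovered size factors, served for the depth and for 1 alternative fit. Strand use in counting is not given in the sources used here, and 10 of the 43 genes share over 10% of their exonic bases with another gene. Gene models were GENCODE M21, which held 98.5% of the identifiers.

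Genes with a mean of at least 5 were tested (15915) with limma 3.58.1 in R 4.3.3, on log2(value + 1), in 1 fit over all 6 libraries, letting the prior variance depend on mean expression, and with two-sided p-values adjusted by Benjamini-Hochberg. Fold changes understate those of low genes. Named genes were all called members, 15 fixed members and, from the further lists, up to 5 called genes per direction and comparison. Members and lists were chosen with earlier results of these data known. Alternatives covered scaling, pseudocount, filter, prior variance, voom on approximate reads, GC content, a replicate block and each library left out. Intervals cover the spread between libraries and the floor of 3 reads counting error only.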

Additional observations from a re-analysis of the deposited data

How the results depend on the processing

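Of the 12 calls, the direction was kept in all alternatives run, and the threshold was passed in 126 of 211. Members called higher in mdx against control numbered 6, but 0 with no minimum mean, 1 with a minimum mean of 50 (28 members tested), 2 with 1 prior variance, 1 after centring by GC content and 1 to 7 without 1 library in turn, which also gave 0 to 1 lower. Members called lower in Sirt6mKO/mdx against mdx numbered 5, but 20 with scaling by total, 0 with no minimum mean, 0 with 1 prior variance, 3 with voom on approximate reads, 2 after centring by GC content and 0 to 5 without 1 library. In Sirt6mKO/mdx against control 1 was lower, but 10 lower and 1 higher with scaling by total, 1 higher with a pseudocount of 0.1, 0 lower with no minimum mean, 2 lower with a minimum mean of 50, 0 with 1 prior variance, 1 higher and 2 lower with a robust prior, 0 with voom, 0 after centring by GC content, 0 with only the 2 groups compared, and 0 to 1 lower and 0 to 1 higher without 1 library. All tested genes called in either direction fell to 406, 19 and 2 with no minimum mean and to 541, 0 and 87 with 1 prior variance, from 2265, 1300 and 1253; at an unadjusted p under 0.05 the reported fit had 4930, 4004 and 3828. With no minimum mean, none of the calls named for the further lists remained except those of Btg2 in both comparisons and of Fas and Sesn2 in mdx against control, and with 1 prior variance those of Etaa1, Tipin, Btg2, Fas and Sesn2 in mdx against control. The cause of these changes was not tested, except that scaling by total shifts all genes of the Sirt6mKO/mdx comparisons.

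Members that were not called changed sign as follows. With scaling by total, Trp53bp1 in Sirt6mKO/mdx against mdx was at -0.36 and, against control, Atr at -0.50 and Brca1 at -0.40. With voom, Chek1 in Sirt6mKO/mdx against control was at 0.06. After centring by GC content, Atm in mdx against control was at -0.28, Fancd2 in Sirt6mKO/mdx against mdx at 0.16, and Atr and Xpc in Sirt6mKO/mdx against control at -0.06 and 0.05. Without 1 library in turn, signs changed, with these lowest and highest values: in mdx against control Atm -0.16 to 0.32, Prkdc -0.18 to 0.14, Parp2 -0.04 to 0.34 and Xrcc6 -0.05 to 0.49, in Sirt6mKO/mdx against mdx Trp53bp1 -0.01 to 0.54 and Fancd2 -0.61 to 0.51, and in Sirt6mKO/mdx against control Atr -0.08 to 0.29, Chek1 -0.56 to 0.35, Xpc -0.58 to 0.44, Xrcc5 -0.82 to 0.07, Rad51ap1 -0.21 to 1.21 and Fignl1 -0.05 to 1.27.

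The labels do not say whether the replicate numbers pair the samples. Deviations from the group means correlated at -0.13, 0.12 and 0.01 over 15915 genes between the 3 pairs of groups, which cannot exclude a pairing. With the replicate block the member counts stayed at 6, 5 and 1, and the block changed no other count of members. With 2 libraries per group and 15 of the 43 members at a mean under 50, small differences may have been missed.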
